A study of Rattus norvegicus with 50 samples.

Results

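The genes described here, whose expression varied together in the brain and the blood of the same rats, are Ccdc77, Rtel1, RGD1309362, Fam20b, Tmco3, RT1-N2 and Psat1. These 7 genes, of 15049 measured transcript clusters with 1 gene symbol, were chosen by their own values: with the mean of each group removed, their hippocampus and PBMC values correlated above 0.7 over 25 animals. Each gene had 1 cluster on the array. The correlation that selected them is given as a description, without a test.

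The study used male Wistar rats, an outbred stock, aged 3.5 months, born in 8 litters. NW rats (n = 8) received vehicle by mouth on days 1 to 20 of life and were later fed a 10% fat diet (share of calories). MONW rats (n = 8, a model of the metabolically obese, normal-weight state) received the same vehicle and later 11 weeks of a 60% fat diet, isocaloric to the intake of NW. MONW-Lep rats (n = 9) received leptin by mouth on days 1 to 20, at 5 times the leptin taken in with milk, and then the high-fat diet of MONW. RNA of the hippocampus and of mononuclear blood cells (PBMC) was hybridised to Rat Clariom S arrays, 1 for each tissue of an animal and 50 in all. The arrays of the 2 tissues were paired by the group and number in their titles, and the sources used here do not say which litter an animal came from.

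In an outbred stock, a gene under a strong local sequence variant is often found at a few distinct levels among animals, in more than one tissue. A probe that lies over a variant can give the same picture. No genotype was measured, and the part of variants in these values was not tested.

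Values are log2 expression levels as the authors deposited them after RMA, a procedure that corrects the background, equalises the arrays and summarises the probes of a cluster. In the hippocampus the 7 neuron and glia markers averaged 9.78 to 10.56 per array, and in PBMC 4 leukocyte markers averaged 10.20 to 10.77, against 5.35 to 5.84 in the hippocampus. The hippocampus array of the animal MONW 7 stood apart: its mean over 6 striatum markers was 9.46, against 6.84 to 7.13 in the other 24 arrays. None of the 7 genes passed the threshold between groups with or without this animal. Most values of the 7 genes lay under the 95th percentile of the 1153 negative control rows of their array, which ran from 7.96 to 8.58 in the hippocampus and from 8.59 to 9.51 in PBMC. Only Psat1 (25 arrays) and Fam20b (16 arrays) exceeded it in the hippocampus, and only RGD1309362 (9 arrays) and Rtel1 (1 array) in PBMC. These negative controls themselves had medians of 5.08 to 5.45 and 6.0 to 6.63. For this reason differences are given on the log2 scale and not as folds.

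The 7 genes had the 7 highest correlations of all 15049 clusters. Pearson's r was 0.845 for Ccdc77, which encodes a coiled-coil protein of the centrosome, and 0.819 for Rtel1, a DNA helicase that protects telomeres. It was 0.791 for RGD1309362, listed in RefSeq with the synonym Ifgga1 and thus among the interferon-inducible GTPases, and 0.787 for Fam20b, the kinase that phosphorylates xylose in the linker of proteoglycans. Tmco3, predicted from its sequence to be a sodium-proton antiporter, had 0.770. RT1-N2, an MHC class I gene of the rat RT1 complex, had 0.769, and Psat1, an aminotransferase of serine synthesis, had 0.764. Over all clusters the median r was 0.0219, and 12 clusters (0.0797%) were above 0.7. The other 5 are not among the 7 genes: Gstm4 (r = 0.748), Ppp2r5a (0.711), Il10rb (0.706), Eif6 (0.702) and Art5 (0.702). Just below the threshold lay Itm2b (0.698), Nefm (0.689) and Slc35f6 (0.689). Among the array's own control rows, 4 of 1683 were also above 0.7, the highest at 0.869.

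**Figure D1:**
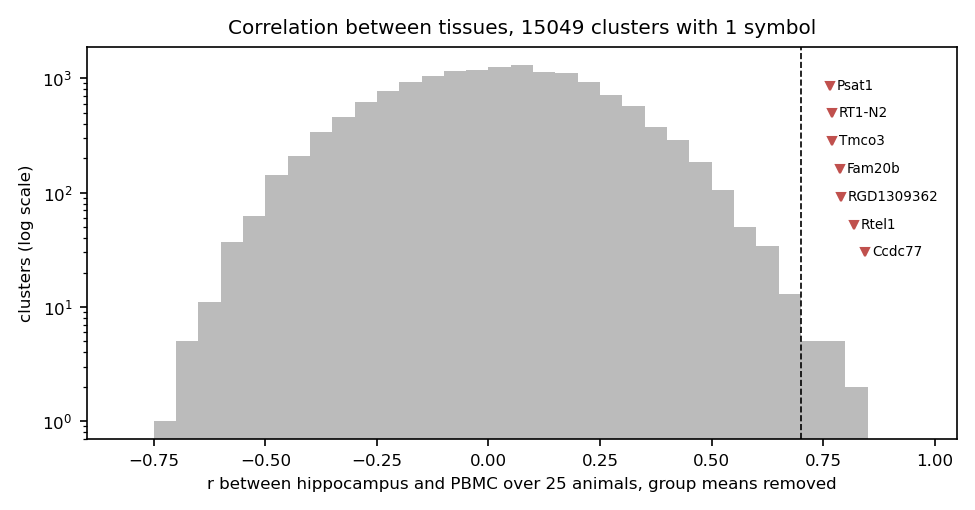
Pearson's r between hippocampus and PBMC over 25 animals after removal of group means, for 15049 clusters (grey bars, counts on a log axis). Red marks show the r of the 7 genes at arbitrary heights, from 0.764 for Psat1 to 0.845 for Ccdc77, and the dashed line stands at 0.7.

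No such match between tissues was seen over the transcriptome as a whole. Across the 15049 clusters, the group-centred hippocampus and PBMC values of one animal correlated with a median r of 0.0139 (range -0.0934 to 0.137), against a median of -0.000508 for tissues of different animals. The own PBMC array gave the highest r for 2 of the 25 hippocampus arrays. The pairing of the tissues therefore rests on the titles.

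Within the groups the 7 genes differed in how evenly they covaried. Ccdc77, Rtel1, RGD1309362 and RT1-N2 had r above 0.7 within each of the 3 groups. Of all clusters, 2.61% were above 0.7 within NW, 3.11% within MONW and 2.40% within MONW-Lep. The range over the groups was 0.785 to 0.883 for Ccdc77, 0.756 to 0.868 for Rtel1 and 0.772 to 0.831 for RT1-N2. Fam20b had r = 0.938 in NW and 0.569 in MONW-Lep. Tmco3 reached 0.911 in MONW, against 0.641 in NW and 0.669 in MONW-Lep, and Psat1 0.835 in MONW-Lep, against 0.651 in NW. The genes also differed in spread: the within-group standard deviation of RGD1309362 stood at the 99.7th percentile of all clusters in the hippocampus and the 99.9th in PBMC, and that of Ccdc77 at the 99.3rd and 97.1st. Tmco3 had the narrowest spread, at the 22.8th and 21.3rd percentiles.

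**Figure D2:**
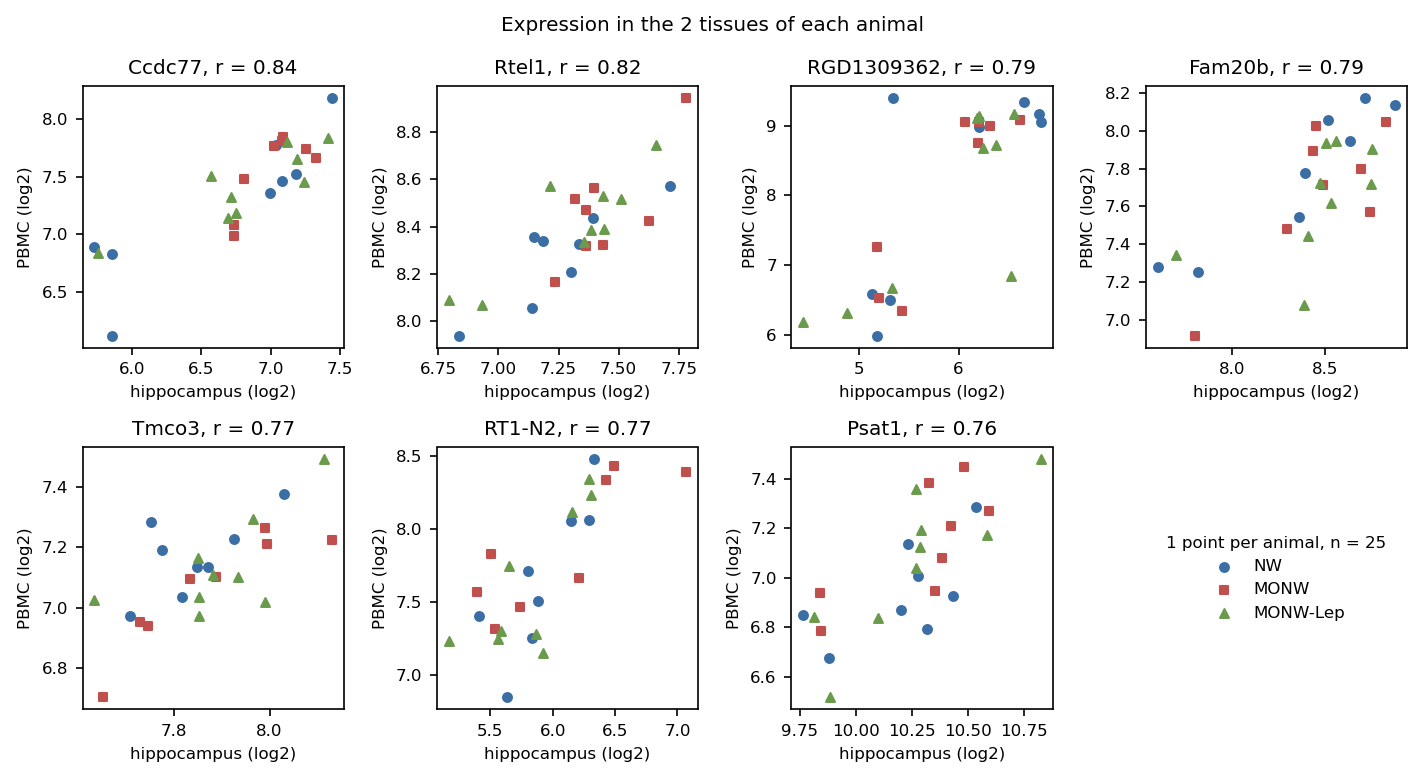
Log2 expression in hippocampus (x) and PBMC (y), 1 point per animal (n = 25) and 1 panel per gene; colour and shape give the group. RGD1309362 forms 2 separate clouds with 2 animals apart from them, Ccdc77 has 4 animals at 5.85 or less in the hippocampus, and the other genes spread without a break of that size.

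RGD1309362 was found at 2 levels. In PBMC, 10 animals had values between 5.99 and 7.26 and 15 animals between 8.68 and 9.40, with no animal in the 1.42 log2 units between. A normal mixture with 2 components of equal variance had means of 6.52 and 9.05, 2.52 log2 units apart, and its BIC exceeded that of 1 component by 38.3. In the hippocampus the 2 components lay at 5.14 and 6.40, again with 10 animals below the widest gap (5.43 to 6.06) and 15 above it. The lower means, 6.52 in PBMC and 5.14 in the hippocampus, lay within the range of the negative controls' medians (6.0 to 6.63 and 5.08 to 5.45). The low level was thus not told apart from background. Of the 25 animals, 14 were high in both tissues and 9 were low in both.

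Only 2 animals, NW 4 and MONW-Lep 1, lay on unlike sides. NW 4 had 5.34 in the hippocampus, in the low cloud, and 9.40 in PBMC, the highest PBMC value of all. MONW-Lep 1 had 6.53 in the hippocampus, in the high cloud, and 6.84 in PBMC, in the low one. In NW 4 the 2 tissues deviated from their group means in the same direction for 5 of the 7 genes, with Rtel1 the other exception, and in MONW-Lep 1 for 6 of 7. Over all animals this count ran from 4, as in NW 1, to 7, as in NW 2. The genes were chosen by the agreement of these same values, so the counts cannot test the pairing of the tissues. Without NW 4 the r of RGD1309362 was 0.869.

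The levels of RGD1309362 were spread over the groups. In PBMC the high level was found in 5 of 8 NW, 5 of 8 MONW and 5 of 9 MONW-Lep animals. In the hippocampus it was found in 4, 5 and 6 animals. Because the animals fall into 2 clouds, r was also taken inside each, here with group means kept. It was 0.420 over the 14 animals high in both tissues. Over the 9 low in both, a level near the medians of the negative controls, it was 0.312. These sets leave out the 2 animals on unlike sides. Split by PBMC alone, r was -0.112 over the 15 high animals, NW 4 included, and 0.420 over the 10 low ones. The spread inside the clouds was small, with PBMC standard deviations of 0.19 and 0.36.

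A cluster without a gene symbol carried the same pattern. Cluster TC1800000603.rn.2 had r = 0.900 with RGD1309362 in the hippocampus and 0.980 in PBMC, and an r of 0.716 between the tissues. Its PBMC values split at 6.10 to 7.69 into 10 low and 15 high animals, and all 25 animals lay on the side on which they lay for RGD1309362. RGD1309362 itself is cluster TC1800000605.rn.2. The digits after TC give the chromosome for 99.5% of the 14834 named clusters that could be compared with RefSeq, so both clusters carry the number of chromosome 18. RefSeq places RGD1309362 on chr18:55943741-55969375 (GRCr8). The next measured gene, Ifgga2l1, which its name groups with the interferon-inducible GTPases, lies 62.5 kb away and had r = 0.729 with RGD1309362 in PBMC and -0.402 in the hippocampus. Probes of one such gene may also take up RNA of a near copy, and a cluster does not tell them apart.

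**Figure D3:**
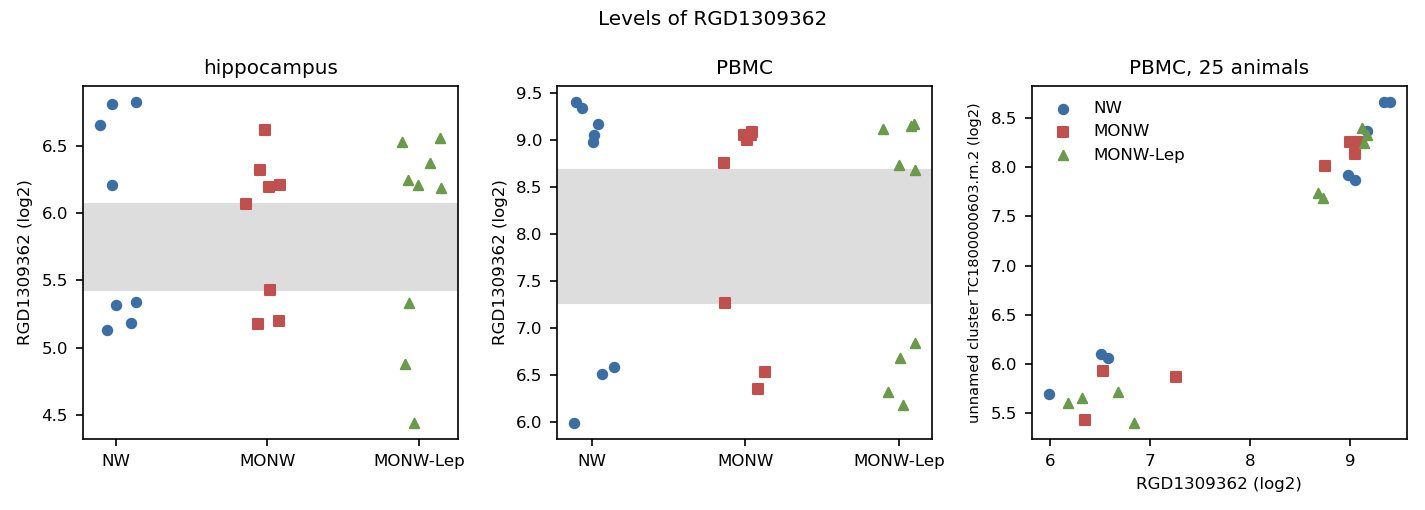
RGD1309362 expression (log2) in hippocampus (left) and PBMC (middle) by group, 1 point per animal with horizontal jitter, the grey band marking the widest gap between neighbouring values; the right panel sets the unnamed cluster TC1800000603.rn.2 against RGD1309362 in PBMC. Both levels occur in all 3 groups, and the 10 low and 15 high animals in PBMC are the same for both clusters.

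Ccdc77 had 3 fitted levels in the hippocampus, at 5.80, 6.72 and 7.18. The lowest held 4 animals (NW 3, NW 5, NW 6 and MONW-Lep 3, at 5.73 to 5.85), and the next value was 6.57. In PBMC 1 component was preferred, although these 4 animals had 6.12 to 6.89, the lowest values of the tissue. The hippocampus values ran from 5.73 over a median of 7.02 to 7.44 in NW, from 6.73 over 7.05 to 7.33 in MONW, and from 5.75 over 6.75 to 7.41 in MONW-Lep. The 3 groups thus overlapped, and no MONW animal had the lowest level. Among the 21 animals above the gap, r with group means kept was 0.749. With group means removed first, 1 component was preferred in the hippocampus as well. RefSeq places Ccdc77 on chr4:155206402-155238235.

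Fam20b also had 3 fitted levels in the hippocampus, at 7.72, 8.45 and 8.75. The lowest held 4 animals, NW 3, NW 5, MONW 4 and MONW-Lep 6, at 7.59 to 7.81, and the next value was 8.29. NW 3 and NW 5 were also low for Ccdc77. In PBMC 1 component was preferred, and the 4 animals had 6.92 to 7.34. These were not all the lowest of the tissue: MONW-Lep 5, above the gap in the hippocampus (8.39), had 7.08 in PBMC. Above the gap r with group means kept was 0.544 (21 animals). RefSeq places Fam20b on chr13:71351834-71390192.

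RT1-N2 was fitted by 2 components in PBMC, at 7.39 and 8.23, by a BIC margin of 0.596, and by 1 component in the hippocampus. When the components were allowed unequal variances, 1 component was preferred in PBMC too. Rtel1, Tmco3 and Psat1 had 1 component in both tissues. With unequal variances Psat1 had 2 components in the hippocampus, and Ccdc77 and Fam20b had 2 there in place of 3, while RGD1309362 kept 2 in both tissues. A preference for 1 component among 25 animals does not show that levels are absent. In all, 3 of the 7 genes had more than 1 level in the hippocampus, where 13.2% of all clusters did, and 2 of 7 in PBMC, where 11.1% did. The same values chose these genes, so these counts are descriptive. Only RGD1309362 had more than 1 level in both tissues.

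The tissue means, which the choice of the genes did not use, differed for all 7 genes. Within animals, Psat1 was 3.20 ± 0.04 log2 units (SE, n = 25) higher in the hippocampus, the largest difference of the 7. Tmco3 was higher in the hippocampus by 0.75 ± 0.03 and Fam20b by 0.73 ± 0.05. The other 4 genes had higher values in PBMC. The hippocampus minus PBMC difference was -0.58 ± 0.05 for Ccdc77, -1.05 ± 0.03 for Rtel1, -1.79 ± 0.06 for RT1-N2 and -2.15 ± 0.16 for RGD1309362. The highest adjusted p was 5.97e-11 (limma, Benjamini-Hochberg over all clusters). The choice by covariation does narrow the spread of these differences within animals, so their SE and p may be too small. Of all clusters, 84.3% differed at this threshold, so a tissue difference is the rule on these arrays. The negative controls were also higher in PBMC, with array medians of 6.0 to 6.63, against 5.08 to 5.45 in the hippocampus. Whether the differences of the 4 genes with higher PBMC values exceed this shift was not tested. For Ccdc77 and Rtel1, whose differences were the smallest of these 4, higher expression in PBMC is thus not shown. In tissue samples such as these, fewer cells of a type and less RNA per cell cannot be told apart.

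Diet and leptin were then compared. None of the 7 genes passed the unadjusted p of 0.05, the threshold of the study, in either tissue. Over all clusters, the share that passed in the hippocampus was 3.08% for MONW versus NW, 2.34% for MONW-Lep versus NW and 3.10% for MONW-Lep versus MONW. In PBMC it was 3.0%, 4.75% and 2.45%. After Benjamini-Hochberg adjustment no cluster passed in any of the 6 comparisons (limma).

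Ccdc77 had the largest mean difference in the hippocampus, 0.36 ± 0.23 log2 units (SE) higher in MONW (7.01 ± 0.23, SD, n = 8) than in NW (6.65 ± 0.71, n = 8), with a 95% interval of -0.12 to 0.84 and an unadjusted limma p of 0.136 (exact permutation p = 0.187). In PBMC the same difference was 0.28 ± 0.21 (limma p = 0.192, exact permutation p = 0.299). Of the 4 animals with the lowest hippocampus level of Ccdc77, 3 were NW animals.

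Rtel1 had the smallest limma p of the 7 genes in each tissue over all animals. Without MONW 7 its hippocampus difference between MONW and NW was 0.16, and Ccdc77 (0.35) and RT1-N2 (-0.29 between MONW-Lep and MONW) then had smaller p. Its PBMC values ran from 7.94 over a median of 8.33 to 8.57 in NW, from 8.17 over 8.45 to 8.94 in MONW, and from 8.07 over 8.39 to 8.75 in MONW-Lep. The difference between MONW and NW was 0.19 ± 0.11 (limma p = 0.0957, exact permutation p = 0.111), and that in the hippocampus was 0.18 ± 0.11 (limma p = 0.121, exact permutation p = 0.116, over 12870 regroupings). Without NW 8 the difference was 0.25 in the hippocampus and 0.23 in PBMC, and without MONW 8 it was 0.23 in PBMC, and each of these 3 passed the unadjusted limma threshold.

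Psat1 in PBMC was 0.19 ± 0.12 higher in MONW than in NW (p = 0.122, limma; exact permutation p = 0.0988). The Psat1 values in PBMC ran from 6.67 over a median of 6.90 to 7.29 in NW, from 6.79 over 7.15 to 7.45 in MONW, and from 6.52 over 7.12 to 7.48 in MONW-Lep. In the hippocampus Psat1 was at 9.76 to 10.54 in NW, 9.84 to 10.59 in MONW and 9.81 to 10.83 in MONW-Lep. The groups overlapped in both tissues.

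For the remaining genes the ranges of the 3 groups overlapped widely. Fam20b in the hippocampus had medians of 8.45 in NW, 8.47 in MONW and 8.51 in MONW-Lep, and in PBMC of 7.86, 7.76 and 7.72. Tmco3 had hippocampus medians of 7.83, 7.86 and 7.88 and PBMC medians of 7.16, 7.10 and 7.10 in the same order. RT1-N2 ran from 5.41 to 6.33 in the hippocampus of NW, from 5.39 to 7.07 in MONW and from 5.17 to 6.30 in MONW-Lep, and its PBMC medians were 7.61, 7.75 and 7.30. Each difference lay within the spread of the animals, and all groups overlapped.

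RGD1309362 had the widest intervals. Its PBMC difference between MONW and NW was 0.01 with a 95% interval of -1.23 to 1.25, since both levels occur in both groups. Group differences within that interval are not excluded here.

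**Figure D4:**
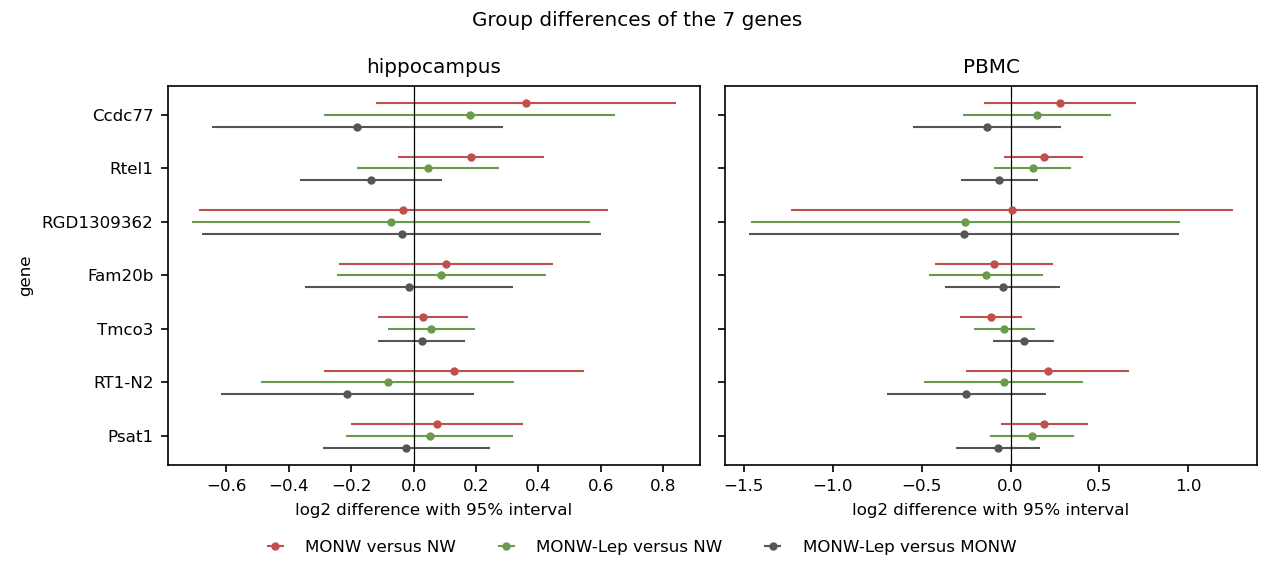
Log2 difference between groups with its 95% interval (limma) for the 7 genes in hippocampus (left) and PBMC (right), on unlike x scales; colours give the comparison. All intervals include 0, and those of RGD1309362 are the widest.

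Whether a group difference was unlike in the 2 tissues was tested on the difference of the tissues within each animal. No gene passed the unadjusted limma threshold, against 3.37%, 3.34% and 2.62% of all clusters for MONW versus NW, MONW-Lep versus NW and MONW-Lep versus MONW. The smallest limma p was 0.0624, for Fam20b in MONW-Lep versus NW (0.23 ± 0.12). For Tmco3 the 2 tests were apart. Its hippocampus minus PBMC difference ran from 0.47 over a median of 0.71 to 0.78 in NW, from 0.73 over 0.79 to 0.95 in MONW, and from 0.61 over 0.77 to 0.97 in MONW-Lep. MONW was 0.14 above NW, with an exact permutation p of 0.00357, the smallest of the 63 permutation tests made, and a limma p of 0.0810. The groups overlapped. Limma draws the variance of a gene towards that of all clusters, which the permutation test does not. The genes were chosen because their tissues varied together, which narrows this difference within groups. The p-values of these tests are therefore not independent of the choice and may be too small.

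The 7 genes did not form one pattern. Between any 2 of them, r of the group-centred means of both tissues ran from -0.557 (Fam20b and Tmco3) to 0.456 (Ccdc77 and Fam20b). Each gene lies on a chromosome of its own in RefSeq (GRCr8): besides those given, Rtel1 is on chr3:188778329-188842877, Tmco3 on chr16:82919324-82956485, RT1-N2 on chr20:2645980-2650260 and Psat1 on chr1:222623553-222646187. The points are the same 25 animals for every gene, so these correlations are descriptions.

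The measured genes around each of them mostly did not share the covariation. Of the 140 genes within 10 places on either side, 3 had r above 0.5 between the tissues: RT1-S3 (0.537) beside RT1-N2, Tubgcp3 (0.541) beside Tmco3 and Fbn2 (0.521) beside RGD1309362. Over all 15049 clusters, 215 (1.43%) had r above 0.5, so these 3 are given as values and not as a result about the neighbours. The median over the 140 was 0.00953. One neighbour correlated with its gene above 0.5 in both tissues, Ppdpf, 99.7 kb from Rtel1, at 0.553 in the hippocampus and 0.556 in PBMC.

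RT1-N2 stood out for an opposite neighbour. Of all 15049 clusters, that with the r of largest size to the mean of RT1-N2 over both tissues was RT1-S3, another class I gene 25.2 kb away, at -0.802. The r was -0.753 in the hippocampus and -0.467 in PBMC. RT1-S3 ran from 6.26 over 7.07 to 7.72 in the hippocampus, and from 9.75 over 10.07 to 10.34 in PBMC. Animals high for RT1-N2 thus tended to be low for RT1-S3, more so in the hippocampus by the size of r, a difference that was not tested. RT1-S2, 4.79 kb from RT1-N2, had r = -0.159 and -0.542, and RT1-N3, its closest relative by name, had 0.160 and 0.663. RT1 genes are near copies of each other and their copy number is known to vary between rats, so the share of each in a probe signal is uncertain.

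**Figure D5:**
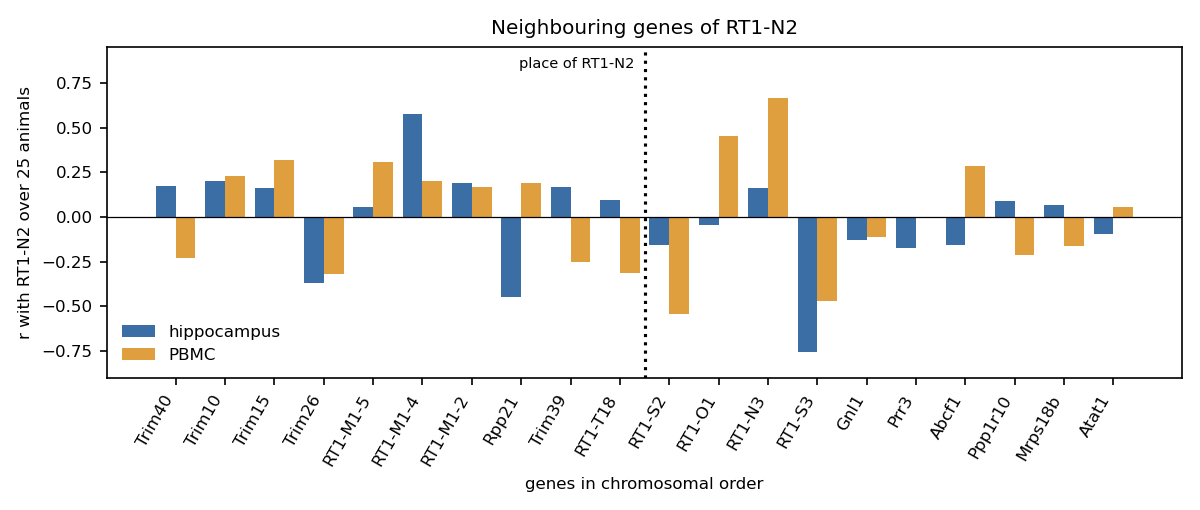
Pearson's r with RT1-N2 over 25 animals (group means removed) for the 10 measured genes on either side, in chromosomal order, in hippocampus (blue) and PBMC (orange). RT1-S3 has the lowest hippocampus value (-0.753) and RT1-N3 the highest PBMC value (0.663).

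The genes most alike to the other 6 were taken from the whole table by the size of r with the mean over both tissues. Such a likeness can rest on 1 tissue. For Fam20b they were Dkk3 (0.832), a secreted Wnt modulator, Ccl9 (0.758), a chemokine, and Vta1 (-0.750). Ccl9 had 0.664 in the hippocampus and 0.798 in PBMC, and an r of 0.510 between the tissues. Dkk3 had 0.372 and 0.630, and Vta1 -0.0961 and -0.623. For Tmco3 they were Nras (-0.783), Phykpl (-0.763) and Hpf1 (0.743). For Rtel1 they were Oas1b (0.774), of the interferon-induced oligoadenylate synthetases, Lin7b (0.737) and Ythdf1 (-0.710), a reader of methylated RNA that lies 361 kb from Rtel1. Lin7b had -0.00445 with Rtel1 in the hippocampus and 0.834 in PBMC, and Ythdf1 -0.630 and -0.475. For Ccdc77 they were Phox2a (0.690), Tyro3 (-0.688) and Gpatch2l (-0.661), and for RGD1309362 Ppef2 (-0.670), Or8g18e (-0.670) and Ces1c (-0.645). For Psat1 they were Gtsf2 (0.719), Cdh17 (-0.676) and Or6al1 (0.675). For RT1-N2, after RT1-S3, they were Ascl3 (-0.763) and Dhrs7l1 (0.709).

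The other genes of the pathways of the 7 genes were set beside all clusters, whose median r between the tissues was 0.0219, with 1.43% above 0.5. The 7 genes were chosen by a high r, so that the other genes lie lower was fixed in advance. For serine synthesis, the 7 other genes measured had a median r of -0.0262, with Phgdh, the enzyme before Psat1, at -0.220 and Psph, the one after it, at -0.336. Inside the hippocampus, Shmt2, which turns serine into glycine, had r = 0.719 with Psat1, against 0.175 in PBMC. The 29 other genes of MHC class I and its loading had the highest list median, 0.154, and 1 above 0.5, RT1-S3. For the 14 others of proteoglycan synthesis the median was 0.0850 and for the 15 others of telomere maintenance 0.0580. For the 8 other interferon-inducible GTPases it was -0.00501, and none had r above 0.203. Ifgga2l1 was not on this list. The 5 other centriole genes (0.153) and 7 other sodium-proton exchangers (0.0296) likewise held none above 0.5.

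Between groups, the genes of these lists passed the unadjusted limma threshold about as often as all clusters did. The 92 genes gave 13 calls in 552 tests (2.36%), from 10 genes, where 2.34% to 4.75% of all clusters passed in a comparison. None passed after adjustment, so the genes below are given as values and not as a result about the lists. Each p is from an exact permutation test.

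In the hippocampus of MONW against NW, 3 of the 92 genes passed (3.26%, against 3.08% of all clusters). Of the 9 interferon-inducible GTPases, Ifi47 was lower by 0.32 ± 0.11 (permutation p = 0.0204) and Gbp2 by 0.15 ± 0.07 (permutation p = 0.0364). The list's median difference there was -0.13, with 2 of 9 above 0, against a median of -0.000357 over all clusters. Of 30 class I and loading genes, B2m, the light chain of class I molecules, was lower by 0.15 ± 0.07 (permutation p = 0.0434).

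In PBMC of MONW-Lep against NW, 4 passed (4.35%, against 4.75%). RT1-CE4 was lower by 0.30 ± 0.13 (permutation p = 0.0216) and RT1-M1-4 by 0.29 ± 0.12 (permutation p = 0.0427). Cntrob, 1 of 6 centriole genes, was higher by 0.25 ± 0.07 (permutation p = 0.000658), and in the hippocampus of MONW-Lep it was higher by 0.18 ± 0.08 against NW (permutation p = 0.0105) and by 0.22 ± 0.08 against MONW (permutation p = 0.0162). Slc1a4, 1 of 8 serine genes, was lower by 0.25 ± 0.10 (permutation p = 0.0230), and by 0.28 ± 0.10 in MONW against the same NW animals (permutation p = 0.0244).

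The remaining calls were RT1-M5, higher by 0.21 ± 0.08 in the hippocampus of MONW-Lep against MONW (permutation p = 0.0302), Slc9a2, 1 of 8 exchangers, higher by 0.29 ± 0.13 in PBMC of MONW against NW (permutation p = 0.00109), and Dkc1, 1 of 16 telomere genes, higher by 0.16 ± 0.07 in PBMC of MONW-Lep against MONW (permutation p = 0.0373). No gene of the 15 for proteoglycan synthesis passed in any comparison. Of the 10 genes named, B2m, RT1-CE4 and Dkc1 had group means within or above the range of the negative controls' 95th percentiles, and the means of the others lay under it. RT1-M1-4 (4.0 and 4.29) and Slc9a2 (5.48 and 5.19) were also under the median of the PBMC negative controls, so their differences are between signals not above background. Slc1a4 in PBMC (means of 6.23, 6.25 and 6.51) lay within the range of those medians, 6.0 to 6.63, and was not told apart from background. The NW mean of Cntrob in PBMC (6.40) lay in that range too.

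Cell type markers were set beside the 7 genes, as 14 lists in 2 tissues. Of these 196 correlations, 4 were past 0.5 in size, all in PBMC. Tmco3 had r = -0.613 with 5 microglia and macrophage markers, whose PBMC mean ran from 7.29 to 8.69, -0.555 with 4 platelet markers (7.43 to 11.01) and -0.543 with 6 endothelium markers (6.25 to 6.90). RT1-N2 had 0.548 with 7 neuron and glia markers, which lay at 6.26 to 6.67 in PBMC. In the hippocampus, the r of the 7 genes with any list lay between -0.365 and 0.443, choroid plexus included, whose mean ran from 5.92 to 10.35. The marker lists themselves had r from -0.223 to 0.334 between the tissues. Their part in the results was not tested.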

How the data were processed

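The 50 arrays were grouped by their titles. Per the labels and the paper's methods, the authors deposited RMA values on the log2 scale, 1 per transcript cluster and array; their notes also name limma and R 4.0.4. The sources used here do not say whether the 2 tissues were normalized together, so a tissue difference also depends on that step. Of 24871 clusters, 1683 controls and 8139 without exactly 1 symbol in the annotation table were left out of the tests. Positions are those of RefSeq (GRCr8), matched by gene identifier.

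Each tissue was fitted with limma 3.58.1 in R 4.3.3 (1 coefficient per group), as were the differences between tissues within animals. Intervals are 95%. Single differences were also tested with two-sided exact permutation tests (12870 or 24310 regroupings). Levels were fitted with mclust 6.1.1 (1 to 3 components of equal variance, by BIC). Correlations were computed in Python 3.11.15. Animals are the replicates; their litters are not given, so littermates cannot be told apart.

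The genes, lists and tests were chosen with earlier results of these data known. Named beside the 7 genes are the 3 most alike to each, neighbours past 0.5, genes around the 0.7 threshold, and list genes past the unadjusted threshold (at most 4 a list). RT1-S2, RT1-N3, Ifgga2l1, Shmt2, Phgdh and Psph and the unnamed cluster were named after their values were seen. Class I genes were taken as the RT1 symbols outside the class II names RT1-B, RT1-D and RT1-H, since the table held no descriptions. For symbols with several clusters, lists used the brightest. Scripts were tested on simulated data. Alternatives covered the arrays used, the normalization, a filter on dim clusters, the variance model and the replicate number.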

Additional observations from a re-analysis of the deposited data

Results flagged for a closer look

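One of the 42 sets of values of a gene in a group and tissue held an animal far from the others, and chance alone gives about 1 in 20. Fam20b in the hippocampus of MONW-Lep 6 was 7.69, and the next lowest MONW-Lep animal had 8.39. Its PBMC value was 7.34, the second lowest of that group.

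The difference between MONW and NW for Tmco3 was unlike in the 2 tissues by the exact permutation test: the hippocampus minus PBMC difference was 0.14 log2 units higher in MONW (p = 0.00357, unadjusted, 1 of 63 such tests). Without MONW 7, whose hippocampus array held striatum genes and had the highest Tmco3 value, it was 0.12 (p = 0.00839, exact permutation; chosen after seeing the data). The limma p was 0.0810 with and 0.132 without this animal. Choosing the gene by its covariation narrows this difference within groups, so these p-values may be too small. In PBMC, Tmco3 moved against platelet, endothelium and microglia markers (r from -0.613 to -0.543), whose part was not tested.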

How the results depend on the processing

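All 7 genes stayed above 0.7 between the tissues in each of 25 fits that left out 1 animal, without the 2 animals farthest from the median, after quantile normalization again, with arrays centred and with group means kept. With Spearman's rho 5 of 7 did (Rtel1 0.677 and RGD1309362 0.685 did not), and within NW alone and MONW-Lep alone 5 of 7. Of all clusters, 2.61% were above 0.7 within NW alone and 2.40% within MONW-Lep alone, against 0.0797% over the 25 animals. In the fits that left out 1 animal this share was 0.0598% to 0.140%. The 7 genes were chosen by this r in the same animals, so that they stayed above 0.7 was largely fixed in advance. All 7 kept a tissue difference (6 of 6 with the filter on dim clusters).

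The count of genes past the unadjusted threshold was 0 in the 6 group comparisons. Leaving out 1 animal gave 0 to 1 for MONW versus NW in hippocampus and in PBMC: Rtel1 without NW 8 or MONW 8, and Ccdc77 in PBMC without NW 1 (0.41). It stayed 0 in the other 4 comparisons. With the replicate number as a block (replicate block), 1 gene, Psat1, passed in PBMC for MONW versus NW (0.19) and 1 for MONW-Lep versus NW (0.19). With this block 6 of 7 genes were above 0.7 between the tissues (Psat1 0.572), where 0.319% of all clusters were. The numbers share no stated origin: same-numbered arrays of 2 groups correlated from -0.435 to 0.448, and at most 3 of 8 matched their own number best. Of 63 group differences, 21 changed sign in some refit, all with p of 0.468 or above.

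The filter on dim clusters tested 4 of the 7 genes in the hippocampus. The number of genes with more than 1 level in either tissue was 4, RT1-N2 by a BIC margin of 0.596 among them, or 3 with group means removed. With unequal variances it was also 4, but with Psat1 in place of RT1-N2. The share of all clusters was taken for each tissue alone (13.2% and 11.1%), not for this count. With 5 neighbours on each side, 2 in place of 3 had r above 0.5. Signals near the negative controls limit what can be said of low genes.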
